A study of Homo sapiens with 6 samples.

Results

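The ARHGEF12 to CRTAM neighbourhood is a stretch of chromosome 11 from POU2F3 to JHY, described here through 10 of the 18404 genes that had a probe set of their own on the array. In chromosomal order, as RefSeq (GRCh38.p14) lists it, they were POU2F3, TLCD5, ARHGEF12, GRIK4, TBCEL, TECTA, SORL1, UBASH3B, CRTAM and JHY. The stretch was chosen by its measured differences between the groups compared below, so those differences are a description of the genes and no test was read from them. Each gene was read by 1 probe set annotated to it alone, and no probe set naming several genes held any of the 10. All 10 genes had a value on every array.

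The study used MEC-1, an established B cell line from chronic lymphocytic leukemia, transduced with a lentiviral short hairpin RNA (shRNA). In the 3 knockdown samples the shRNA targeted UGT2B17, which glucuronidates androgens among other substrates, and in the 3 scrambled samples it was a control sequence. Both groups carried a lentiviral hairpin and were grown in the same medium. The labels give neither the number of hairpins nor whether replicates were separate cultures, so the spread between arrays may be technical, and effects of lower UGT2B17 cannot be told apart from other effects of that hairpin or from differences between cultures. Values are log2 signals of probe sets, 1 array per sample.

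UGT2B17 itself was lower in the knockdown, at 3.19, 3.27 and 3.17 log2 units against 3.95, 3.69 and 3.91 with scrambled shRNA. This left 64.4% of the scrambled signal on a dim probe set annotated to it alone. On 3 further probe sets, which also name other genes, the log2 differences were −1.34, −1.50 and −0.21. No single value therefore gives the message that remained. The number of arrays limits the precision of every value. B cell genes marked the cells: the 6 of 8 listed markers that were measured, among them CD79A, MS4A1 and PAX5, lay at percentile 88.6 or above when the deposited probe sets were ranked on mean signal. None of the 6 passed between groups in limma, and 1 had an unadjusted p under 0.05, against 18.2% of all genes tested. Scrambled replicate 3 lay furthest from its own group, with a mean Pearson correlation of 0.9934 to the other scrambled arrays against 0.9943 or more for the other 5 arrays and their groups.

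The genes of this stretch share a location and not a pathway. ARHGEF12 (also called LARG) is a guanine nucleotide exchange factor that couples the G proteins G12 and G13 to the small GTPase RhoA, and UBASH3B (Sts-1) is a tyrosine phosphatase that removes activating phosphates from SYK and ZAP70, kinases downstream of antigen receptors. CRTAM is an immunoglobulin-family surface receptor of activated T and NK cells that binds CADM1, and SORL1 is a sorting receptor that returns cargo from endosomes to the Golgi. POU2F3 is a POU-domain transcription factor that specifies tuft cells, GRIK4 a kainate-type glutamate receptor subunit, TECTA a protein of the tectorial membrane of the inner ear, and TBCEL a relative of tubulin folding cofactor E. JHY is linked to the cilia of ependymal cells, and TLCD5 is a membrane protein with a TLC domain.

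The promoters of neighbouring members are shown because genes called higher in the knockdown lay toward both ends of the stretch and genes that were not called lay between them. RefSeq promoter sequences (GRCh38.p14) were matched for 7 of the 10 members, and POU2F3, TLCD5 and CRTAM were not matched. Each line below gives the 250 bases before the annotated start on the plus strand, 5′ to 3′, with capitals for the E-box CACGTG and for the GC box GGGCGG on either strand. The windows lie at chr11:120336163-120336412 for ARHGEF12 (the first of 2 listed starts), chr11:122655472-122655721 for UBASH3B, chr11:122882509-122882758 for JHY, chr11:121023852-121024101 for TBCEL and chr11:121452064-121452313 for SORL1. The first 3 belong to genes called higher in the knockdown and the last 2 to genes that were not called.
ARHGEF12: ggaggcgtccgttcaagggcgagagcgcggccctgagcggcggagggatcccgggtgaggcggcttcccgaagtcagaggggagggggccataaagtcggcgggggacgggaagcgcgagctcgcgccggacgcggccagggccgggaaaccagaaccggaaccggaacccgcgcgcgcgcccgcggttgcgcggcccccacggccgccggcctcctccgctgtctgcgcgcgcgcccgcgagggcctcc
UBASH3B: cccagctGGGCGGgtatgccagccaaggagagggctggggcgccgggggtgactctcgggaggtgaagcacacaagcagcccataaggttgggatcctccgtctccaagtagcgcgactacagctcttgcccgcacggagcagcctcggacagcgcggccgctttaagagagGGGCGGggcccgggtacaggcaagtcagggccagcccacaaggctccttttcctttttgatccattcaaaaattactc
JHY: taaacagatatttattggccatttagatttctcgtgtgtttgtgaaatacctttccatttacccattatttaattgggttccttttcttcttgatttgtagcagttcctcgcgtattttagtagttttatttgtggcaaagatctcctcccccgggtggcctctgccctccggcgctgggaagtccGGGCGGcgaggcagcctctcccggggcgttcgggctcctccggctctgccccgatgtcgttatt
TBCEL: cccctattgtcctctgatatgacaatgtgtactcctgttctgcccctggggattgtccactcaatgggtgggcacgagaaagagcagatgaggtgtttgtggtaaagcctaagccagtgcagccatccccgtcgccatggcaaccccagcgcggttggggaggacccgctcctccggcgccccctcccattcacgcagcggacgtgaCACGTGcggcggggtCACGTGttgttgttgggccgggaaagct
SORL1: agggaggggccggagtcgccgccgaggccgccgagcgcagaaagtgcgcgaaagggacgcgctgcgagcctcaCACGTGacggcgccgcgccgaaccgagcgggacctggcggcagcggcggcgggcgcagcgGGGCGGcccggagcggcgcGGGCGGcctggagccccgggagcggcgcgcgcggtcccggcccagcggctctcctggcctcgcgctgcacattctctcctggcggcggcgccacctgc

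Base composition overlapped between the windows of called and uncalled genes. The ARHGEF12 window had 77.6% G and C with 42 CpG dinucleotides, close to the SORL1 window with 80.4% and 45, and the medians over all 35116 RefSeq windows of this length were 58% and 11. UBASH3B had 62.4% G and C with 15 CpG, JHY 50% with 15, and TBCEL 61.2% with 16. The E-box occurred 2 times in the TBCEL window and 1 time in the SORL1 window, and in 6.34% of all windows. It was absent from the windows of ARHGEF12, UBASH3B and JHY, and also from those of GRIK4 and TECTA, which were not called. The GC box occurred 2 times each at UBASH3B and SORL1 and 1 time at JHY, and in 42.6% of all windows. At GRIK4, which was not called, it occurred 3 times in the first listed window and 1 time in the second. It was absent at ARHGEF12, TBCEL and TECTA. The octamer ATGCAAAT (1.63% of all windows), the cyclic AMP element TGACGTCA (1.65%) and the ETS motif CCGGAAGT (3.42%) were in none of the 9 windows of the 7 matched members, searched on both strands, and TATAAA (10.7%) occurred only in the window of the second ARHGEF12 start. A match describes letters in a window, and the motifs do not overlap one another in the printed sequences.

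Of the 10 genes, 5 were among those called higher in the knockdown by limma over all genes (adjusted p under 0.05), none was called lower, and 5 were not called. Over all 18404 genes 3.61% were called, 1.92% higher and 1.69% lower, a balance of 354 to 311 that turned to 275 to 316 with arrays centred on their median. Nothing is read from the members' share because the stretch was chosen on this contrast. The called genes formed 2 runs: TLCD5 with ARHGEF12 near one end, and UBASH3B, CRTAM and JHY at the other. GRIK4, TBCEL, TECTA and SORL1, which lie between the runs, were not called. The groups did not overlap in 6 of the 10 genes, against 24.8% of all genes tested. The median log2 difference of the 10 was 0.27 against −0.002 over all genes. By unadjusted p, ARHGEF12 ranked 58 and CRTAM 102 among all genes, UBASH3B 363, TLCD5 386 and JHY 621, the last close to the end of the 665 called genes.

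**Figure D1:**
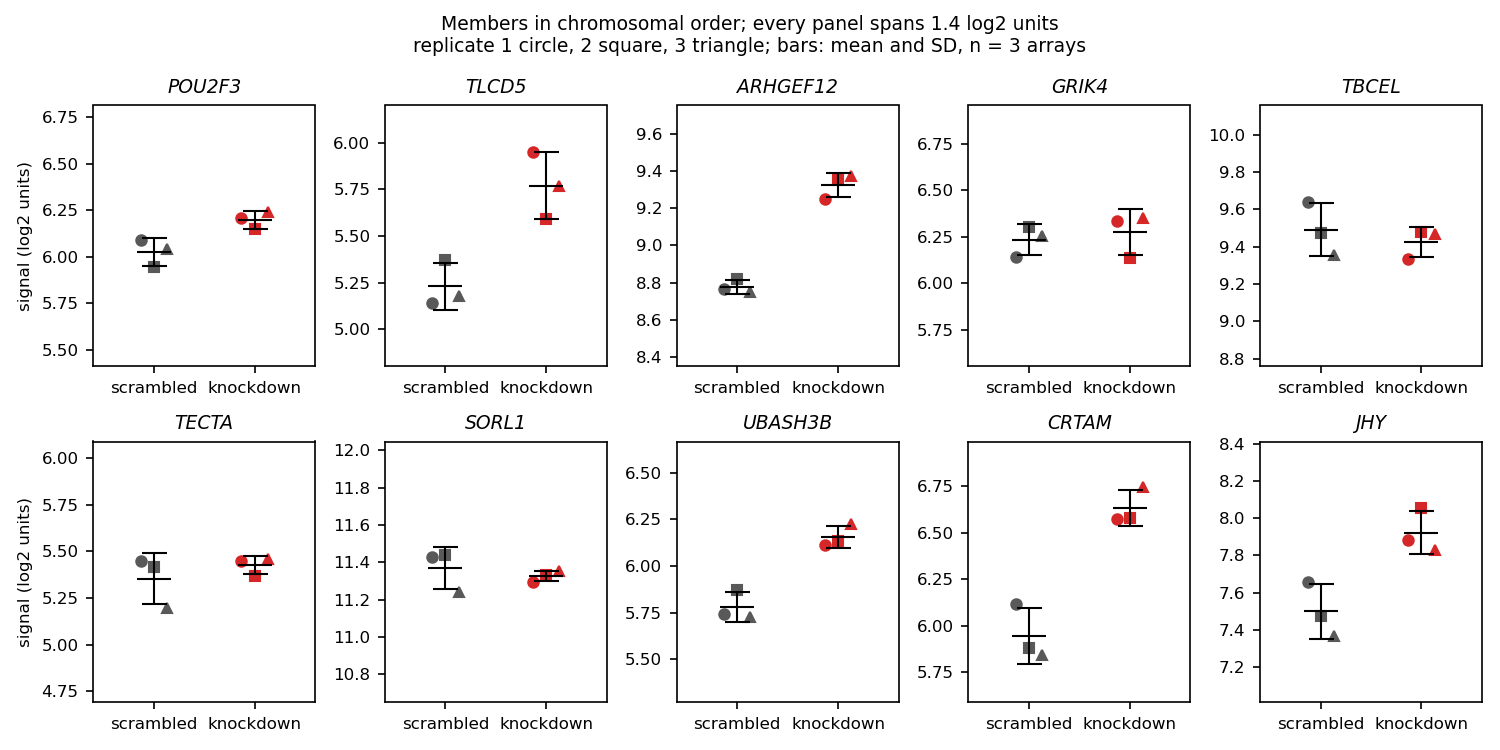
Signal in log2 units (y axis) of the 10 genes on each of the 3 scrambled and 3 knockdown arrays (x axis), with the group mean and SD. ARHGEF12, CRTAM, TLCD5, UBASH3B, JHY and, by a smaller margin, POU2F3 have every knockdown array above every scrambled array, and the other 4 genes overlap.

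Among the signalling genes, ARHGEF12 had the smallest p of the 10. It read 8.76, 8.82 and 8.75 log2 units on scrambled replicates 1 to 3 and 9.25, 9.35 and 9.37 on knockdown replicates 1 to 3. The lowest knockdown array thus lay above the highest scrambled array by more than the range within either group. The means were 8.78 ± 0.04 and 9.32 ± 0.07 (SD, n = 3 each), a log2 difference of 0.55 ± 0.07 (SE) or 1.46-fold higher, with a 95% interval of 0.40 to 0.69. Its mean signal was at percentile 83.4 over the deposited probe sets. Such percentiles only say how far a probe set stood above the dim ones, since the signals of different probe sets are not abundances. ARHGEF12 was called under all 15 alternative settings, with log2 differences from 0.52 to 0.58.

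UBASH3B, the phosphatase acting on SYK, read 5.74, 5.87 and 5.73 log2 units with scrambled shRNA and 6.11, 6.13 and 6.23 with the knockdown. The groups did not overlap, and the gap was narrower than in ARHGEF12. Its means were 5.78 ± 0.08 and 6.16 ± 0.06 (SD), a log2 difference of 0.38 ± 0.07 (SE) or 1.30-fold higher. The probe set lay at percentile 43.2. Its call was lost in 7 of 14 alternatives, among them the fits that left out 1 array, except the one without scrambled replicate 3, with differences from 0.30 to 0.42.

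CRTAM, the receptor of activated lymphocytes, had the largest difference of the 10 genes. It read 6.12, 5.88 and 5.84 log2 units on the scrambled arrays and 6.57, 6.58 and 6.74 on the knockdown arrays. Scrambled replicate 1 was the highest of its group and still lay below all 3 knockdown arrays. The means were 5.95 ± 0.15 and 6.63 ± 0.10 (SD), a log2 difference of 0.68 ± 0.09 (SE) or 1.61-fold higher, with a 95% interval of 0.48 to 0.89. In absolute size the difference lay at percentile 99.5 of all genes. The probe set was at percentile 48.2 by mean signal, where background compresses differences. CRTAM was called under all 14 alternatives run for it, with differences from 0.63 to 0.77.

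Markers of T and NK cells, in which CRTAM is known, had mean signals that overlapped between the groups. The mean over the 14 of 14 listed markers that were measured ranged from 6.30 to 6.34 log2 units on the scrambled arrays and from 6.29 to 6.38 on the knockdown arrays. The T cell receptor subunits CD3D, CD3E and CD3G lay at percentiles 30.1, 28.8 and 31.9 of all probe sets, with log2 differences of 0.05, 0.02 and 0.04 that did not pass. KLRD1, a subunit of an NK cell receptor, fell by 0.64 (limma, adjusted p = 0.00620), and the other 13 markers did not pass. At an unadjusted p under 0.05 there were 4 of the 14, against 18.2% of all genes tested. Besides KLRD1, these were the costimulatory receptor CD28, the granule protein NKG7 and the pore-forming perforin PRF1. Their log2 differences were 0.33 ± 0.09, 0.25 ± 0.06 and 0.17 ± 0.06 (SE; limma, adjusted p = 0.0960, 0.0752 and 0.182). In CD28, NKG7 and PRF1 every knockdown array lay above every scrambled array. Groups did not overlap, in either direction, in 24.8% of all genes. By mean signal, 10 of the 14 markers lay below the median of all probe sets. PRF1 was bright, at percentile 93.6, and TBX21, EOMES and NKG7 lay at percentiles 79.9, 62.6 and 59.7. The part of these markers in the CRTAM difference was not tested. MEC-1 is a B cell line. In its bulk RNA a change in the number of cells expressing a gene and a change in RNA per cell cannot be told apart.

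The remaining called genes were TLCD5 and JHY. TLCD5, the TLC-domain protein, read 5.14, 5.37 and 5.18 log2 units with scrambled shRNA and 5.95, 5.59 and 5.77 with the knockdown. The groups did not overlap, though scrambled replicate 2 and knockdown replicate 2 came close to each other. Its means were 5.23 ± 0.13 and 5.77 ± 0.18 (SD), a log2 difference of 0.54 ± 0.10 (SE) or 1.45-fold higher, nearly the size seen in its neighbour ARHGEF12 but with a wider 95% interval of 0.31 to 0.78. The probe set was dim, at percentile 36.1, and the call was lost in 7 of 14 alternatives, including the fits that left out 1 array, except the one without knockdown replicate 2.

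JHY, the ciliary gene at the far end, read 7.66, 7.48 and 7.37 log2 units with scrambled shRNA and 7.88, 8.05 and 7.83 with the knockdown. Every knockdown array exceeded every scrambled array. The means were 7.50 ± 0.15 and 7.92 ± 0.12 (SD), a log2 difference of 0.42 ± 0.09 (SE) or 1.34-fold higher. Of 15 alternatives, 8 ended its call, among them centring each array on its median and the fits that left out 1 array, except the one without scrambled replicate 1.

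POU2F3, the first gene of the stretch, separated the groups by a small margin and was not called. It read 6.09, 5.94 and 6.04 log2 units with scrambled shRNA and 6.21, 6.15 and 6.24 with the knockdown. The gap between the highest scrambled and the lowest knockdown array was smaller than the range within either group. The log2 difference was 0.17 ± 0.07 (SE), and the gene was called only with array weights, where the difference was 0.23. Tuft cell markers were dim or of middling signal: of 7 measured markers, 5 lay below the median of all probe sets, with TRPM5 at percentile 47.4. None passed in limma, and 0 had an unadjusted p under 0.05. Their mean ranged from 6.29 to 6.31 on the scrambled arrays and from 6.26 to 6.30 on the knockdown arrays.

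The 4 members between the called runs overlapped between groups. SORL1, the endosomal sorting receptor, was bright, at percentile 97.0, and read 11.43, 11.44 and 11.24 log2 units with scrambled shRNA against 11.30, 11.33 and 11.35 with the knockdown. The 3 knockdown arrays fell inside the scrambled range. Its log2 difference was −0.04 ± 0.07 (SE), with a 95% interval of −0.21 to 0.13. TBCEL read 9.64, 9.47 and 9.36 against 9.33, 9.48 and 9.47, a difference of −0.06 ± 0.09 (95% interval −0.26 to 0.13). The TBCEL probe set was bright too, at percentile 87.4. Whether the differences of SORL1 and TBCEL depart from that of ARHGEF12 was not tested.

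GRIK4 and TECTA, whose products are known from neurons and the inner ear, had signals at percentiles 47.6 and 34.5. GRIK4 read 6.14, 6.30 and 6.25 log2 units with scrambled shRNA and 6.34, 6.14 and 6.35 with the knockdown, a difference of 0.04 ± 0.08 (SE; 95% interval −0.14 to 0.23). TECTA read 5.45, 5.41 and 5.20 against 5.45, 5.37 and 5.46, a difference of 0.07 ± 0.08 (95% interval −0.11 to 0.26). Scrambled replicate 3 was the lowest scrambled array for TECTA, SORL1 and TBCEL alike. RefSeq also lists a read-through gene, TBCEL-TECTA, across this pair, so their probe sets may share transcripts.

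**Figure D2:**
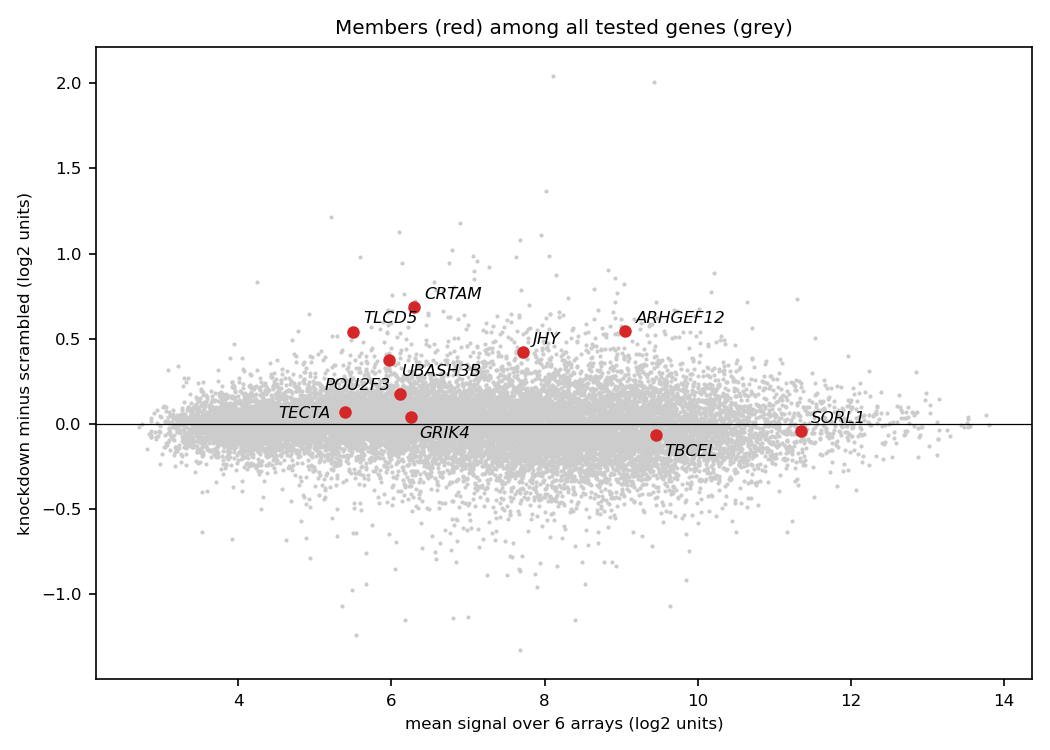
Difference between knockdown and scrambled arrays (y axis, log2 units) against mean signal over the 6 arrays (x axis, log2 units) for all 18404 tested genes (grey) and the 10 genes of the stretch (red). CRTAM at 0.68 and ARHGEF12 at 0.55 lie near the upper edge of the cloud at different signals, and SORL1 and TBCEL lie just below 0.

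Other measured genes inside the stretch did not pass the test. They were 5 in number, of which 1 had an unadjusted p under 0.05: SC5D, MIR125B1, BLID, MIRLET7A2 and MIR100. SC5D, a sterol desaturase of cholesterol synthesis that lies between TECTA and SORL1, read 10.46, 10.35 and 10.16 log2 units with scrambled shRNA and 10.52, 10.59 and 10.66 with the knockdown. Its groups did not overlap, and the log2 difference was 0.27 ± 0.09 (SE), which did not pass (limma, adjusted p = 0.143). The microRNA hairpins between SORL1 and UBASH3B had dim probe sets, at mean signals of 4.51 and 4.49 for MIR125B1, 3.92 and 3.93 for MIRLET7A2 and 3.24 and 3.11 for MIR100 (scrambled, then knockdown). These probe sets read precursors and not mature microRNAs. For MIR100 every knockdown array lay below every scrambled array, at a log2 difference of −0.13 ± 0.06 (SE) that did not pass. Groups thus did not overlap in 2 of the 5 genes, against 24.8% of all genes. The median log2 difference of the 5 genes was 0.01.

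At the first measured gene beyond either end the difference was near 0, though not at every gene further out. OAF, next to POU2F3, differed by −0.02 log2 units and BSX, next to JHY, by 0.02. Of the 20 measured genes before POU2F3, 0 were called higher and 1 lower, and of the 20 after JHY likewise 0 and 1. That is 5% of the 40 flanking genes, against 3.61% of all genes, with a median log2 difference of −0.02. At an unadjusted p under 0.05 there were 10 of the 40, or 25%, against 18.2% of all genes tested. Groups did not overlap in 11 of the 40, or 27.5%, against 24.8% of all genes. Since the ends of the stretch were set with these differences known, the contrast with the flanks is a description. On all 1232 measured genes of chromosome 11, 25 were called higher and 17 lower, or 3.41%, with a median log2 difference of 0.001.

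The called flanking genes both fell. GRAMD1B, an endoplasmic reticulum protein that moves cholesterol from the plasma membrane, is the sixth measured gene after JHY. It read 8.77, 8.95 and 9.20 log2 units with scrambled shRNA and 7.86, 7.75 and 7.86 with the knockdown, so the groups lay far apart. It fell by 1.15 ± 0.10 log2 units (SE; limma, adjusted p = 0.0017), against the direction of CRTAM and JHY. SLC37A4, the glucose-6-phosphate transporter of the endoplasmic reticulum, fell by 0.33 ± 0.06 (adjusted p = 0.0304), a call that was lost in 6 of 15 alternatives, among them each fit that left out 1 knockdown array. NECTIN1, an adhesion molecule of the immunoglobulin family and the third measured gene before POU2F3, had a difference of 0.37 ± 0.09 that did not pass (adjusted p = 0.0531).

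**Figure D3:**
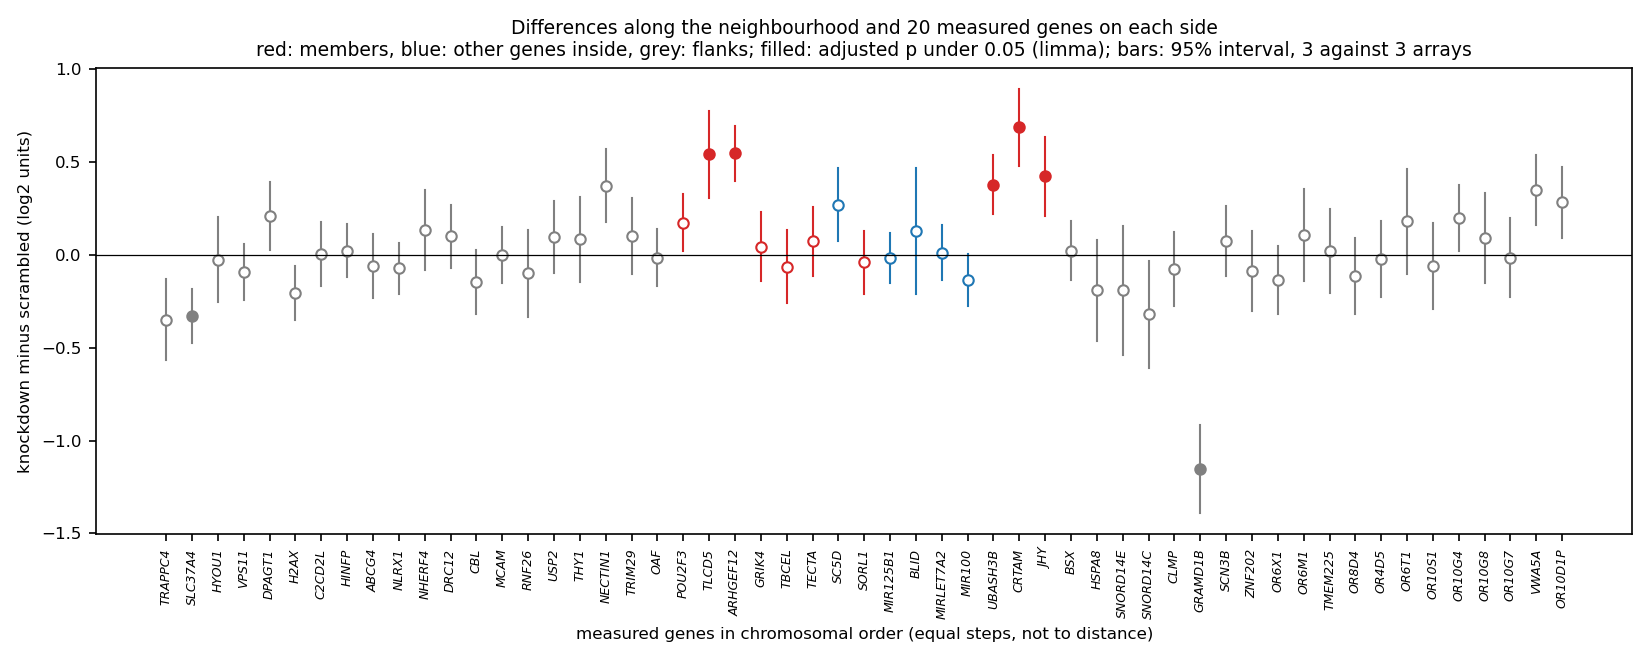
Difference between knockdown and scrambled arrays with its 95% interval (y axis, log2 units) for 55 measured genes in chromosomal order at equal steps (x axis). The 5 filled red points, at 0.38 to 0.68, form 2 runs separated by genes that were not called, among them SC5D at 0.27. GRAMD1B at −1.15 is the sixth gene to the right of the second run.

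Within the groups, where the contrast plays no part, the genes of the stretch did not all move together from array to array. On knockdown replicate 3, 8 of the 10 lay above their group mean, with a median deviation of 0.04 log2 units, and on scrambled replicate 3 only 2 did, with a median of −0.08. The other arrays had 4 to 6 above. The root mean square deviation of the 10 genes per array ran from 0.063 to 0.106 log2 units, against 0.077 to 0.138 over all genes. The value of 0.138 over all genes was that of scrambled replicate 3. The share of all genes above their group mean on each array was not counted. TLCD5 and ARHGEF12, which are neighbours with nearly equal differences between groups, deviated in opposite directions on knockdown replicates 1, 2 and 3: TLCD5 by 0.18, −0.18 and −0.004, and ARHGEF12 by −0.08, 0.03 and 0.05. On scrambled replicates 1 to 3 they deviated in the same direction, TLCD5 by −0.09, 0.14 and −0.05 and ARHGEF12 by −0.01, 0.04 and −0.03. CRTAM and JHY both lay above their mean on scrambled replicate 1, by 0.17 and 0.16, and below it on scrambled replicate 3, by −0.11 and −0.13. On knockdown replicates 2 and 3 they went opposite ways, CRTAM by −0.05 and 0.11 and JHY by 0.13 and −0.09.

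**Figure D4:**
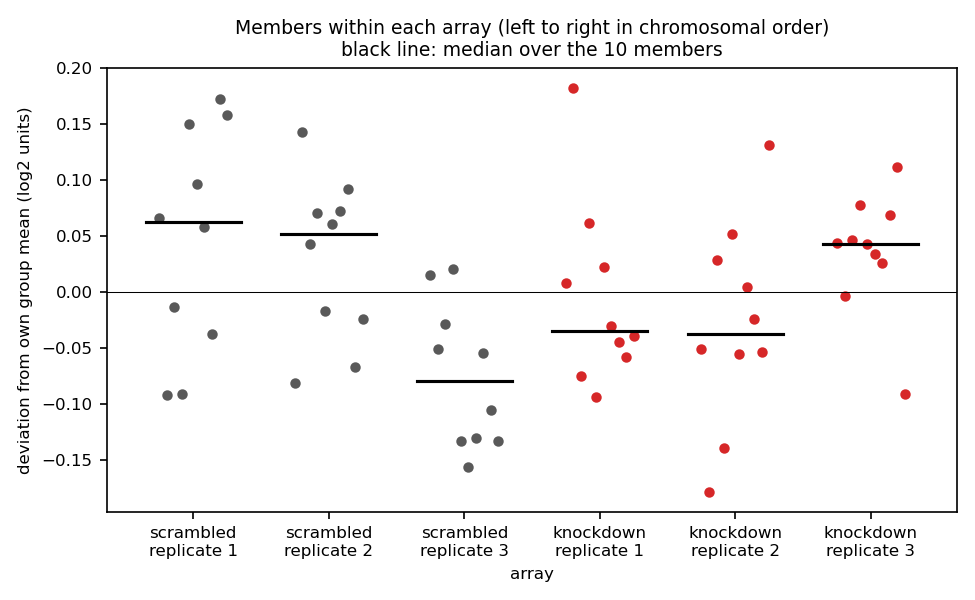
Deviation of each of the 10 genes from its own group mean (y axis, log2 units) on each array (x axis), in chromosomal order from left to right within an array, with the median as a black line. The medians run from −0.08 on scrambled replicate 3 to 0.06 on scrambled replicate 1.

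Genes whose values over the 6 arrays were most like those of ARHGEF12 and CRTAM lay on other chromosomes. So do most genes, since chromosome 11 held 1232 of the 18404 tested, and nothing about location is read from this. After centring each gene on its mean, the smallest root mean square differences from ARHGEF12 were 0.031 log2 units for FUT8, a fucosyltransferase, 0.032 for ABCB1, the multidrug transporter, 0.039 for LY6G5B and 0.041 for SLC2A14, a glucose transporter. For CRTAM they were 0.053 for F2R, the thrombin receptor, 0.053 for CLN8, an endoplasmic reticulum protein, 0.074 for LAX1, an adaptor of lymphocyte signalling, and 0.078 for EEIG2. With 6 arrays and 18404 genes, the group difference dominates this likeness.

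Families and partners of the 10 genes were examined through 10 lists of related genes, and 114 distinct genes on them were measured. Of these, 3 were called higher and 2 lower in the knockdown, or 4.39%, against 3.61% of all genes. The median log2 difference was 0.003. Counts of called genes in single lists stand beside the same 3.61%. Counts at an unadjusted p under 0.05, given for single lists, stand beside 18.2% of all genes tested (3341 of 18404). Centring each array on its median left 3 calls, TTL, CLN8 and CERS6. In the RhoA pathway around ARHGEF12, 6 of 22 measured genes had an unadjusted p under 0.05, log2 differences ran from −0.25 to 0.28, and 1 gene rose: SEMA4D, a semaphorin whose receptor plexin-B1 binds ARHGEF12, by 0.28 ± 0.06 log2 units (SE; limma, adjusted p = 0.0435). Its call was lost in 9 of 15 alternatives, among them each fit that left out 1 array other than scrambled replicate 3.

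Around CRTAM, 1 of 13 nectins, CADM proteins and their receptors was called, and 4 had an unadjusted p under 0.05. Groups did not overlap in 6 of the 13, against 24.8% of all genes. CD226, an activating receptor for the nectin-like ligand PVR, read 9.26, 9.13 and 9.08 log2 units with scrambled shRNA and 9.44, 9.60 and 9.47 with the knockdown, a rise of 0.35 ± 0.08 (SE; limma, adjusted p = 0.0436). Its call was lost in 8 of 15 alternatives, among them each fit that left out 1 array other than scrambled replicate 1. NECTIN1, in the flank described above, is on this list too and had an unadjusted p under 0.05. So did PVRIG and the CRTAM ligand CADM1, which went the other way. They differed by −0.19 ± 0.06 and −0.17 ± 0.07 log2 units (SE; limma, adjusted p = 0.139 and 0.225). Around UBASH3B, 0 of 13 passed in limma, with 1 at an unadjusted p under 0.05, and the phosphatase's substrate SYK had a difference of 0.19 ± 0.07 (adjusted p = 0.225) and CBL, which binds UBASH3B, −0.15 ± 0.08 (adjusted p = 0.365).

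In the tubulin list around TBCEL, 1 of 13 fell: TTL, the ligase that restores the terminal tyrosine of alpha-tubulin, by 0.78 ± 0.17 log2 units (SE; limma, adjusted p = 0.0391). It read 7.58, 7.98 and 8.36 with scrambled shRNA and 7.12, 7.17 and 7.27 with the knockdown, and scrambled replicate 3 was its highest array. The call was lost in 5 of 15 alternatives, among them each fit without 1 knockdown array and the fit without scrambled replicate 2. TBCB, a tubulin folding cofactor, had a difference of −0.33 ± 0.10 that did not pass (adjusted p = 0.129). TTL and TBCB were the 2 of 13 at an unadjusted p under 0.05.

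Among 12 TLC-domain proteins related to TLCD5, CLN8 rose by 0.72 ± 0.10 log2 units (SE; limma, adjusted p = 0.00715) and CERS6, a ceramide synthase, fell by 0.41 ± 0.07 (adjusted p = 0.0158). The CLN8 call held in 15 of 15 alternatives, and the CERS6 call was lost in 4 of 14, including without knockdown replicate 1 or 3 or scrambled replicate 2. CLN8 and CERS6 were also the 2 of 12 at an unadjusted p under 0.05.

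Around SORL1, 0 of 17 genes passed in limma, with 4 at an unadjusted p under 0.05. VPS29, a subunit of the retromer complex, had a difference of −0.27 ± 0.06 log2 units (SE; adjusted p = 0.0509) and LRP5, a Wnt coreceptor, −0.30 ± 0.09 (adjusted p = 0.108). Of 3 measured POU class 2 genes, none passed and none had an unadjusted p under 0.05: POU2F2, the B cell octamer factor, differed by 0.14 ± 0.07 (adjusted p = 0.326) and POU2AF2, a coactivator of POU2F3, by 0.13 ± 0.09 (adjusted p = 0.498).

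Lists tied to GRIK4, TECTA and JHY held no called gene. Of 6 kainate receptor genes and auxiliary subunits, 2 had an unadjusted p under 0.05, and the auxiliary subunits NETO2 and NETO1 read 0.26 ± 0.08 and 0.18 ± 0.06 log2 units higher (SE), which did not pass (limma, adjusted p = 0.120 and 0.145). Of 6 tectorial membrane genes and 9 ependymal cilium genes, 0 had an unadjusted p under 0.05. COL11A2 and TECTB, of the tectorial list, differed by 0.12 ± 0.09 and 0.10 ± 0.08 (adjusted p = 0.551 and 0.581). CFAP43 and SPAG6, of the cilium list, differed by −0.14 ± 0.07 and 0.15 ± 0.08 (adjusted p = 0.304 and 0.363).

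**Figure D5:**
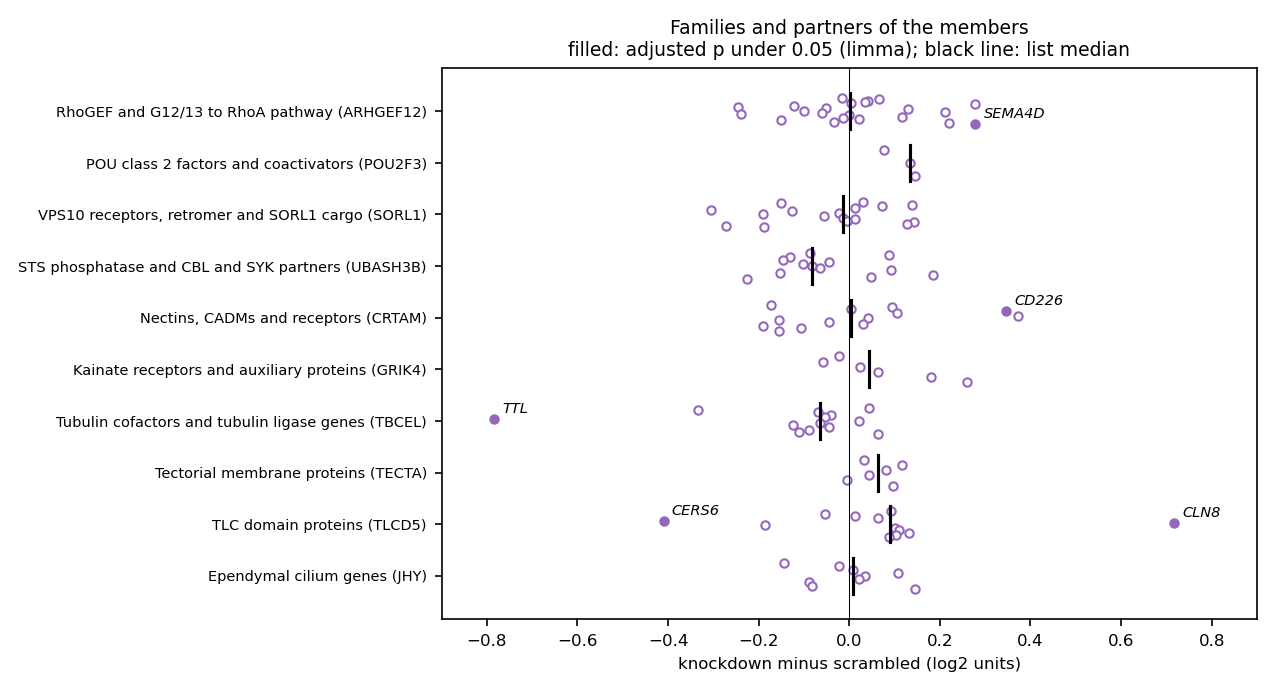
Difference between knockdown and scrambled arrays (x axis, log2 units) for the measured genes of the 10 lists of families and partners (y axis), with filled points for called genes and a black line at each list's median. The called genes are SEMA4D, CD226 and CLN8 above 0 and TTL and CERS6 below 0, and the list medians lie between −0.08 and 0.13.

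Few markers of the other cell types on the lists passed. Of the 7 measured monocyte and granulocyte markers and the 6 erythroid and platelet markers, none passed in limma, and 1 of each list had an unadjusted p under 0.05. Of 8 epithelial and fibroblast markers 2 had an unadjusted p under 0.05: KRT18 rose by 0.32 log2 units (limma, adjusted p = 0.0494), a call lost in 10 of 15 alternatives, and EPCAM differed by −0.36 and did not pass (adjusted p = 0.140). Mean signals on the knockdown arrays were 5.37 to 5.39, 5.41 to 5.46 and 6.41 to 6.43 log2 units for these 3 lists, against 5.38 to 5.48, 5.30 to 5.42 and 6.35 to 6.51 on the scrambled arrays.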

How the data were processed

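Per the labels, total RNA was biotin-labelled with a whole-transcript kit and read on 1 Affymetrix array per sample. The deposited values are log2 signals per probe set, made by the authors with RMA per the submitters' processing notes. RMA normalises by quantiles, which hides a shift shared by most genes, and it compresses differences near background. For its version and the probe set library the sources used here give nothing.

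Probe sets naming 1 gene in the platform annotation (19158 of 32321) were used, with the one of highest mean per gene, which left 18404 genes. Groups came from the labels. The comparison used limma 3.58.1 under R 4.3.3 (lmFit, eBayes, two-sided, no covariate, Benjamini-Hochberg over all genes, threshold 0.05), and differences are knockdown minus scrambled. The fit was tested on simulated data. The RefSeq table (GRCh38.p14) gave gene order only, since no source used here gives the array's build.

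The 10 genes, the lists and the tests were chosen with earlier results of these data known. The naming rule took the 10 genes, UGT2B17, called neighbours, each list's called genes and its 2 smallest p, and the 4 genes most like ARHGEF12 and CRTAM. One list gene that the rule names is not reported here. OAF, BSX, NECTIN1, SC5D, PVRIG, CADM1, the microRNA genes and markers outside it were named by position or list. Alternatives changed scaling, brightness filter, variance prior, array weights, probe sets tested, replicate block, arrays, threshold and flank width.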

Additional observations from a re-analysis of the deposited data

How the results depend on the processing

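ARHGEF12, CRTAM, CLN8, GRAMD1B, KLRD1 and UGT2B17 kept their direction and their call in every alternative run for them, and no called gene named in the text changed direction in any. The count of called genes among the 10 was 5, and it was 2 with only the brighter genes (where ARHGEF12, TBCEL, SORL1 and JHY were tested, and the members' median difference was 0.19 against 0.27), 2 with all deposited probe sets and 2 with the replicate block. Leaving out 1 array gave 2 to 3, in fits with fewer residual degrees of freedom. Over all genes the count of 665 became 3511 with array weights, 165 with all deposited probe sets, 367 with the replicate block and 1207 at an adjusted p under 0.1, and ran from 152 to 759 without 1 array. Same-numbered arrays did not deviate together (correlations of −0.054, −0.067 and −0.033 over genes). With 3 arrays per group this cannot decide whether same-numbered samples were handled as pairs. Flanking calls fell from 2 to 1 with 10 genes on each side, and list calls from 5 to 3 with centred arrays. Uncalled genes changed sign: GRIK4 to −0.034 with array weights and from −0.0042 to 0.11 without 1 array, TBCEL from −0.13 to 0.011 and TECTA from −0.0071 to 0.12. The cause of these changes was not tested. Probe sets were dim for TECTA, TLCD5, the microRNA genes and UGT2B17 (percentile 8), and how far background limits them was not tested.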
